A study of Mus musculus with 18 samples.

Results

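The integrated stress response (ISR) genes followed here are 10 of the 51467 genes in a polysome profiling experiment on mouse embryonic stem cells (ESCs). They were chosen by name and matched by gene symbol. All 10 were found, and all were among the 12705 genes that reached at least 3 CPM (read counts scaled for library depth) in at least 3 libraries. The V6.5 ESC line was used, as the wild type (WT) and with Ddx6 knocked out (Ddx6 KO). Ddx6 is an RNA helicase gene involved in translational repression and mRNA decay. Both genotypes were grown with serum, LIF and the 2i inhibitors PD0325901 and CHIR99021, and both were treated with cycloheximide before lysis. From each of 3 sucrose gradients per genotype, the monosome, the low polysome (between 2 and 4 ribosomes) and the fraction with 4 or more ribosomes, called high polysome, were sequenced as 3′ end libraries, 18 in all. Among the KO gradients, 1 was of clone 1 and the remaining 2 (gradients 2 and 3) were of clone 2. The labels name no stressor, and whether the cells were under stress was not measured.

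In the ISR, stress-sensing kinases phosphorylate the alpha subunit of eIF2, the factor that brings the initiator tRNA to the ribosome. Most initiation then slows, while mRNAs with certain upstream reading frames, of which Atf4 is the classic case, are translated better. ATF4 in turn activates genes of amino acid synthesis and transport, together with stress regulators such as Ddit3, Trib3, Chac1 and Sesn2, and phosphatase subunits encoded by Ppp1r15a and Ppp1r15b restore eIF2 to its active form. ESCs divide fast and have a high demand for amino acids, and whether this bears on the level of these genes was not tested.

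Libraries held 2543617 to 11474550 gene counts, and the WT monosome libraries were the shallowest, at most 4894677. Counts were scaled by library size and a TMM factor computed over all libraries together, so every level is relative to the other mRNAs of the same fraction. A ratio of fractions therefore gives the position of a gene relative to the other genes and not the share of its mRNA in each fraction. Each read marks a transcript end, so CPM was not divided by length. In bulk samples, fewer cells that express a gene and less RNA per cell cannot be told apart. Ddx6 itself lay between 143 and 212 CPM in the 9 WT libraries and between 9.64 and 82.4 CPM in the 9 KO libraries. Clone 1 (1 gradient) held 55.1 to 82.4 CPM of Ddx6 and clone 2 (2 gradients) 9.64 to 26.6 CPM. With 1 value per gradient, and the lone gradient assumed to vary like the rest, the log2 difference over the fractions was 1.91 (SE 0.14, limma adjusted p = 2.56e-05), in which clone 1 and gradient 1 cannot be told apart. The summed level of 8 pluripotency markers was 2490 to 5398 CPM in WT and 2714 to 4158 CPM in KO libraries. Markers of feeder fibroblasts summed to at most 11.1 CPM, with Col3a1 at 0 in every library, those of primitive endoderm to 4.17 to 11.1 CPM in WT and 7.28 to 26.5 CPM in KO, those of mesoderm to 3.54 to 8.44 CPM in WT and 6.01 to 17 CPM in KO, and those of neural cells to 43.7 to 114 CPM, most of it Sox1 and Tubb3. The part of these markers in the results was not tested.

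The 5′ leaders of the principal transcripts were read from the GRCm38 genome with Gencode M21, because upstream start codons are the sequence feature that defines how several of these mRNAs are translated. Of the 10 leaders 8 held at least 1 upstream AUG, against 50.5% of 19782 leaders of protein-coding genes. Of the principal transcripts, only those of Atf4 and Atf5 had an upstream frame that runs past the start of the coding sequence, as 16.8% of all leaders do. Atf4, the transcription factor at the centre of the response, had a leader of 594 nt with 3 upstream AUGs, whose frames were 36, 3 and 59 codons long. In the windows that follow, capitals mark the upstream AUG, and bases are given 5′ to 3′ on the strand of the gene.
Atf4 first AUG, chr15:80255293-80255315: cuuuucucucAUGgggccuuuag
Atf4 second AUG, chr15:80255572-80255594: ugcggccaccAUGgcguauuaga
Atf4 last AUG, overlapping frame, chr15:80255671-80256214 across an intron: ggccuaagccAUGgcgcucuuca

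Atf5, a related factor, had the same arrangement in a leader of 373 nt, with a short frame of 3 codons and an overlapping frame of 58 codons. Ddit3, which encodes the pro-apoptotic factor CHOP, had 2 AUGs in one frame (34 and 31 codons) that stopped 26 nt before the coding sequence. These windows are shown because the genes are the ones whose mRNA lay furthest from the high polysome in both genotypes, together with Ppp1r15a. Sesn2 is added because its position changed most in the KO.
Atf5 first AUG, chr7:44816525-44816547: cgcccgcgcaAUGgcucuguagc
Atf5 second AUG, overlapping frame, chr7:44815275-44816416 across an intron: uuucgccgccAUGgaguccucca
Ddit3 first AUG, chr10:127290819-127290841: cgauuauaucAUGuugaagauga
Ddit3 second AUG, chr10:127290828-127290850: cauguugaagAUGagcggguggc
Sesn2 AUG, chr4:132510441-132510463: cgugguggggAUGgugaggagcg

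The remaining leaders held 1 upstream AUG in Atf3, 2 in Asns, 3 in Ppp1r15a and 3 in Ppp1r15b, all in frames that ended before the coding sequence, and none in Chac1 and Trib3. The 2 Asns AUGs lie before the RefSeq start site used in the promoter search below. They are in the leader only by the Gencode start site. In the transcript with the longest leader, Asns had 1 and Ppp1r15a had 7, of which 1 overlapped the coding sequence. The libraries mark 3′ ends and do not show which leader a molecule carried.

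**Figure D1:**
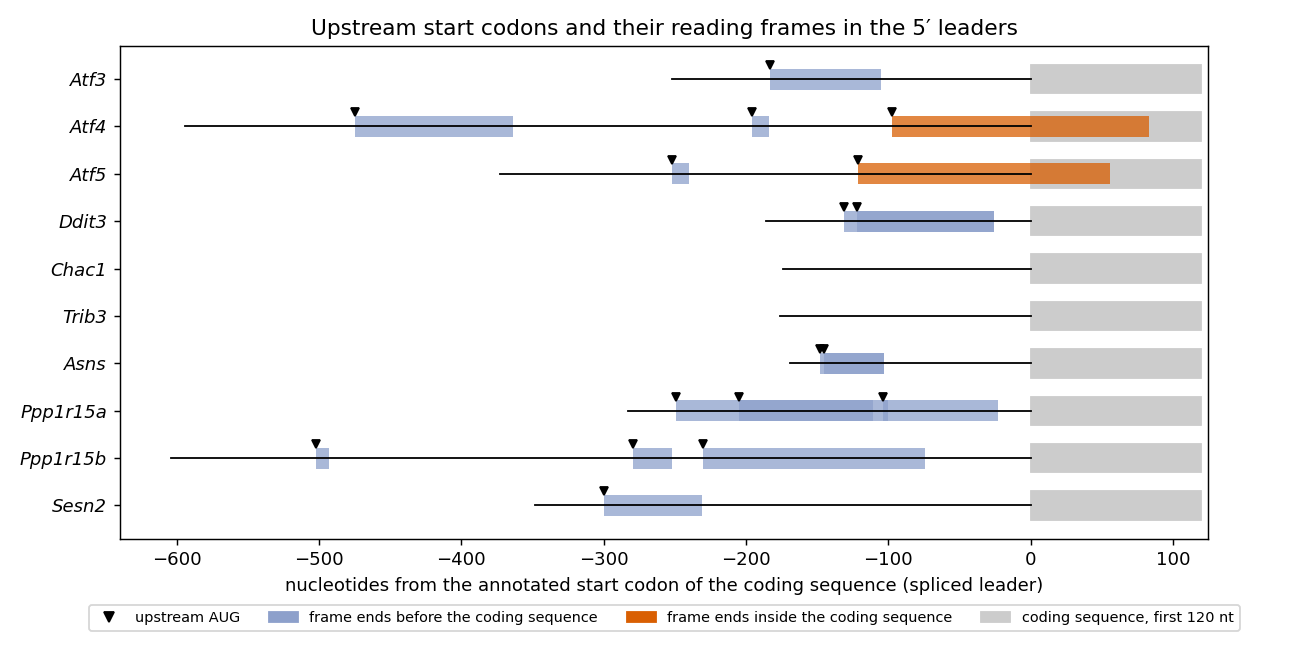
Upstream start codons in the 5′ leaders of the 10 genes, with nucleotides from the annotated start of the coding sequence on the x axis and genes on the y axis. Triangles are upstream AUGs, blue bars are frames that end before the coding sequence and orange bars are frames that end inside it, which are present in Atf4 and Atf5.

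To ask where these mRNAs lay on the gradient in WT cells, the high polysome was compared with the monosome. Atf4, Atf5, Ddit3, Ppp1r15a and Sesn2 were lower in the high polysome, while Asns, Ppp1r15b, Chac1 and Trib3 were higher. Leaders with an upstream AUG were on both sides, with Asns and Ppp1r15b among the higher genes. That is 4 of 10 genes higher and 5 of 10 lower at a limma adjusted p under 0.05, against 28.9% of all genes higher and 32.2% lower. The median log2 difference was -0.16 for the 10 genes and -0.02 for all genes tested.

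Ddit3 (ENSMUSG00000025408.15, chromosome 10, 127290774 to 127296288) was at 80.5, 55.5 and 70.6 CPM in the WT monosome (gradients 1 to 3), at 62.4, 49.1 and 61.9 CPM in the low polysome, and at 13.4, 7.18 and 12.7 CPM in the high polysome. Every high polysome library was far below every other WT library. The log2 difference between high polysome and monosome was -2.66 (SE 0.27, limma adjusted p = 4.93e-08), or 6.33-fold. Ppp1r15a (ENSMUSG00000040435.12, chromosome 7, 45522917 to 45526268), which encodes the stress-induced phosphatase subunit GADD34, followed with a log2 difference of -1.46 (SE 0.15, limma adjusted p = 7.72e-08). Its WT libraries spanned 75.7 to 86.1 CPM in the monosome, 69.0 to 101 CPM in the low polysome and 27.7 to 29.8 CPM in the high polysome.

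Atf4 (ENSMUSG00000042406.7, chromosome 15, 80255184 to 80257540) was the most abundant of the 10 mRNAs in the low polysome, and its peak lay there. It was at 769, 863 and 875 CPM in the WT monosome, at 1568, 1565 and 1628.5 CPM in the low polysome, and at 465, 354 and 371 CPM in the high polysome. The 3 fractions did not overlap. Its mean in the low polysome was 4.00 times its mean in the high polysome, and the log2 difference of high polysome to monosome was -1.09 (SE 0.16, limma adjusted p = 4.77e-06). Atf5 (ENSMUSG00000038539.15, chromosome 7, 44812256 to 44816658) had the same shape at lower levels, with 38.9, 45.8 and 44 CPM in the monosome, 88.6, 84.4 and 93.3 CPM in the low polysome and 23.7, 14.5 and 25.5 CPM in the high polysome. Its low polysome mean was 4.19 times its high polysome mean. The log2 difference of high polysome to monosome was -1.07 (SE 0.27, limma adjusted p = 0.00159), and without WT gradient 2 it was -0.76 (limma adjusted p = 0.0534).

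Asns (ENSMUSG00000029752.12, chromosome 6, 7675169 to 7693254), the enzyme that makes asparagine, lay highest in the high polysome. Its log2 difference of high polysome to monosome in WT was 1.06 (SE 0.11, limma adjusted p = 4.84e-08). Ppp1r15b (ENSMUSG00000046062.5, chromosome 1, 133131143 to 133139783), the constitutive phosphatase subunit CReP, gave 0.61 (SE 0.15, limma adjusted p = 0.00121). Chac1, which degrades glutathione, gave 0.59 (SE 0.23, limma adjusted p = 0.0276) and lost the call without WT gradient 2 (limma adjusted p = 0.0921) or WT gradient 3 (limma adjusted p = 0.139). Trib3, a pseudokinase that restrains ATF4, gave 0.36 (SE 0.12, limma adjusted p = 0.0177) and lost the call without WT gradient 1 (limma adjusted p = 0.0778) or WT gradient 2 (limma adjusted p = 0.0751). Without WT gradient 2 the count of higher genes was therefore 2 in place of 4. Atf3 (ENSMUSG00000026628.13, chromosome 1, 191170296 to 191218039), an ATF4 target and repressor, was the least abundant of the 10, at 5.56 to 13.9 CPM in WT with 18 to 139 counts per library, and its log2 difference of 0.65 (95% interval -0.05 to 1.36) did not pass the test.

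**Figure D2:**
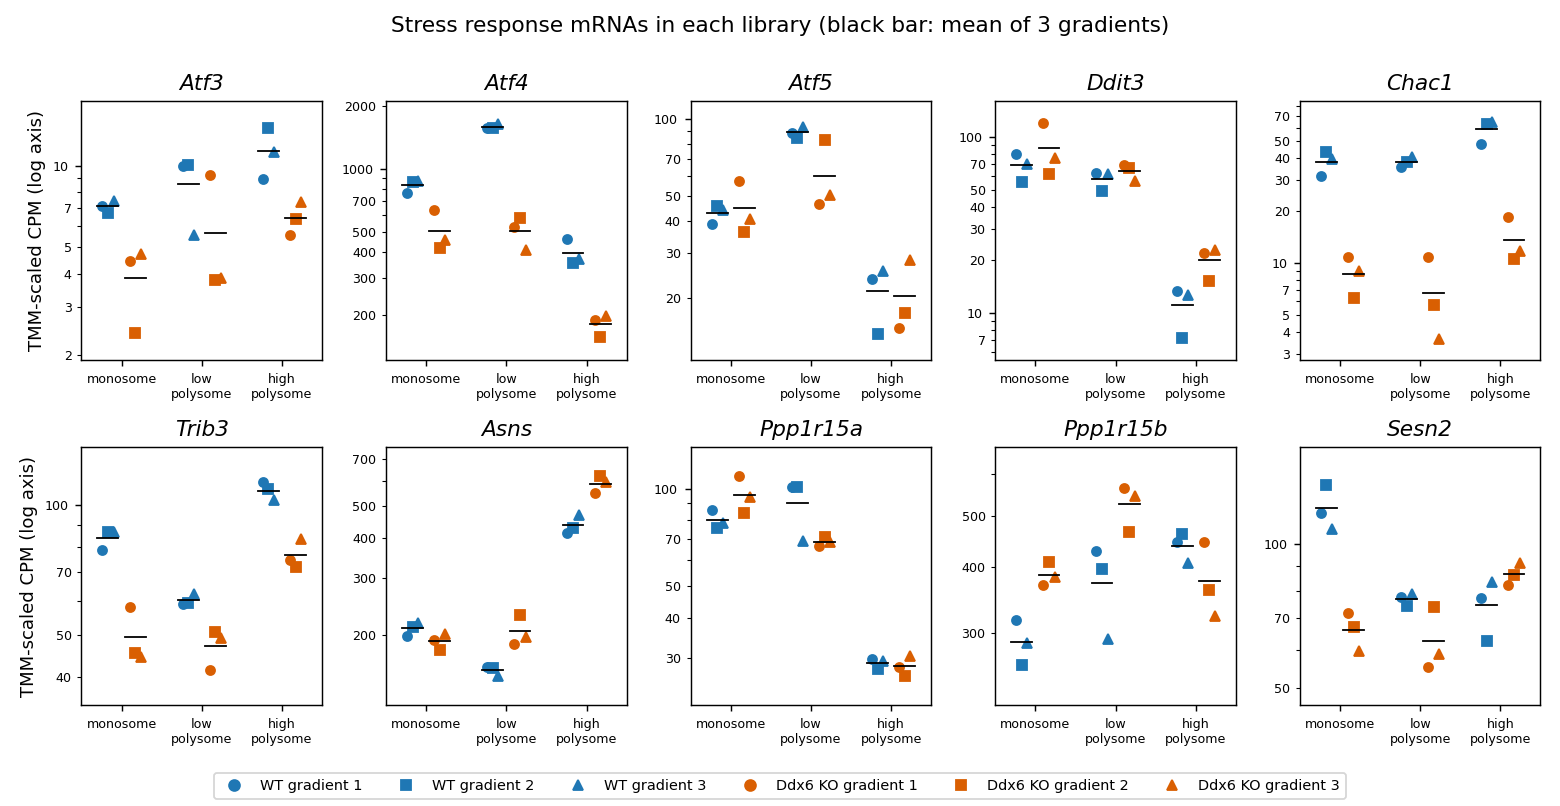
Level of each of the 10 mRNAs in every library, as TMM-scaled CPM on a log axis, by fraction on the x axis, with WT in blue, Ddx6 KO in orange, a symbol for each gradient and a black bar at the mean of 3. Atf4 and Atf5 peak in the low polysome of WT, Ddit3 is low in the high polysome of both genotypes, and all 9 KO libraries lie below all 9 WT libraries for Chac1.

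Next, abundance was compared between genotypes, as the mean of log2 CPM over the 3 fractions of each gradient (3 WT against 3 KO gradients). This mean weights the 3 fractions equally and holds no RNA from outside them, so it is not the mRNA level of whole cells. By this measure Atf4, Chac1, Trib3, Atf3 and Sesn2 were lower in Ddx6 KO gradients, whereas Ddit3, Asns and Ppp1r15b were higher. Genes known as ATF4 targets were thus in both sets. Atf5 and Ppp1r15a did not pass the test. In counts, 3 of 10 genes were raised and 5 of 10 lowered by limma, against 28.5% and 28.7% of all genes, with a median log2 change of -0.26 for the 10 genes and -0.02 for all genes.

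Chac1 (ENSMUSG00000027313.3, chromosome 2, 119351229 to 119354381) fell most. It was at 31.7, 43.5 and 39.4 CPM in the WT monosome and at 10.8, 6.26 and 8.94 CPM in the KO monosome. In the low polysome it was at 35.6, 38.3 and 40.6 CPM in WT and at 10.9, 5.71 and 3.67 CPM in KO. In the high polysome it was at 48.5, 63.1 and 64.4 CPM in WT and at 18.4, 10.5 and 11.7 CPM in KO. Every KO library was below every WT library, and clone 1 was the highest KO gradient in each fraction. The KO means were 22.7% (monosome), 17.7% (low polysome) and 23.1% (high polysome) of the WT means. The abundance change was -2.25 on the log2 scale (SE 0.19, limma adjusted p = 4.68e-07), or 4.75-fold.

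Clone 1 was the highest KO gradient for Chac1, but with a single gradient of clone 1 the clone and the gradient cannot be told apart. A fit over libraries, which counts the 3 fractions of a gradient separately, gave a log2 difference of 0.85 over the fractions (SE 0.19, limma adjusted p = 0.0493), the only one of the 10 genes called, where 0.307% of all genes were higher and 0.299% lower in clone 1. With 1 value per gradient, a fit added after the values were seen, the difference was 0.79 (SE 0.18) and was not called (limma adjusted p = 0.203, unadjusted p = 0.000688). Nor was it called with library size alone or without the filter on low counts, so no difference between the clones is drawn for Chac1. In the ratio of high polysome to monosome none of the 10 genes was called between the clones in limma by either fit, where 0% of all genes were called in either direction. Over libraries 1241 genes had an unadjusted p under 0.05, among them Atf5 with -1.11 (unadjusted p = 0.0348, adjusted p = 0.497).

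Atf4 was lower in the KO in every fraction, but not evenly. The KO libraries held 637, 417 and 456 CPM in the monosome, 529, 583 and 409.5 CPM in the low polysome, and 189, 158 and 197 CPM in the high polysome. None overlapped the WT libraries of the same fraction, given above. Group means were 836 ± 58.2 CPM in WT and 504 ± 118 CPM in KO monosomes (SD, n = 3 each), 1587 ± 35.8 against 507 ± 88.9 CPM in the low polysome, and 397 ± 59.5 against 181 ± 20.6 CPM in the high polysome. Over the fractions Atf4 changed by -1.18 on the log2 scale (SE 0.09, limma adjusted p = 2.51e-07). The log2 change by fraction was -0.75 (monosome), -1.66 (low polysome) and -1.12 (high polysome), each past the threshold in limma, with adjusted p = 0.000728, 5.08e-08 and 9.14e-06.

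Trib3 (ENSMUSG00000032715.9, chromosome 2, 152337422 to 152344032) was lower with little spread. Its monosome values were 78.6, 86.6 and 86.7 CPM in WT and 58.1, 45.5 and 44.6 CPM in KO. In the low polysome they were 59.0, 59.3 and 62.4 CPM in WT and 41.6, 50.8 and 49.2 CPM in KO. In the high polysome they were 113, 109 and 102 CPM in WT and 74.7, 72.0 and 83.3 CPM in KO. The genotypes did not overlap in any fraction. The abundance change was -0.54 on the log2 scale (SE 0.08, limma adjusted p = 0.000108). Atf3 lay at 5.56 to 13.9 CPM in WT libraries and at 2.41 to 9.28 CPM in KO libraries, with overlap only in the low polysome, and its log2 change was -0.75 (SE 0.17, limma adjusted p = 0.00197).

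Of the raised genes, Ddit3 rose by 0.43 on the log2 scale (SE 0.16, limma adjusted p = 0.0313), Asns by 0.23 (SE 0.08, limma adjusted p = 0.0251) and Ppp1r15b by 0.24 (SE 0.09, limma adjusted p = 0.0428). None of these 3 calls survived the removal of each gradient in turn. Ddit3 gave 0.25 without WT gradient 2 (limma adjusted p = 0.174), 0.29 without KO gradient 1 (0.131) and 0.42 without KO gradient 3 (0.0718). Asns gave 0.18 without WT gradient 1 (limma adjusted p = 0.103), 0.20 without KO gradient 2 (0.102) and 0.20 without KO gradient 3 (0.115). Ppp1r15b kept the call only without WT gradient 1, and its adjusted p in limma was 0.0709 to 0.164 without each other gradient. The 5 genes that fell kept the call in all 6 of these fits. Where counts were summed over the fractions, however, Sesn2 (log2 change of -0.30 as reported, limma adjusted p = 0.00784) gave -0.18 in edgeR (adjusted p = 0.117) and -0.20 in DESeq2 (adjusted p = 0.103), Asns gave 0.23 (adjusted p = 0.0695) and 0.22 (0.0653), Ppp1r15b gave 0.18 (0.184) and 0.16 (0.211), and Atf5 gave -0.28 (0.0454) and -0.29 (0.0368), which is past the threshold.

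Within single fractions the counts were 1 gene raised and 4 lowered in the monosome (all genes: 18.6% and 20.1%), 2 raised and 5 lowered in the low polysome (23.4% and 24.3%), and 2 raised and 4 lowered in the high polysome (25.3% and 21.1%). The median log2 change of the 10 genes was -0.44, -0.37 and -0.14 in these fractions, beside -0.03, -0.03 and -0.01 for all genes. Atf4, Chac1 and Trib3 were lowered in all 3. The call of Trib3 in the low polysome, a log2 change of -0.36, was lost without WT gradient 2 (-0.37, limma adjusted p = 0.0652), WT gradient 3 (-0.33, 0.0817) or KO gradient 1 (-0.27, 0.0729). Atf3 was called in the high polysome alone (-0.81, limma adjusted p = 0.0207), though not without WT gradient 2 (-0.66, adjusted p = 0.114), and its log2 changes of -0.95 (monosome) and -0.71 (low polysome) were of similar size. The monosome change was called without KO gradient 1 (-1.08, limma adjusted p = 0.0418), and the low polysome change without WT gradient 3 (-1.0, 0.0197) or KO gradient 1 (-1.10, 0.0118).

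Some members were called in 1 fraction only. Ddit3 was raised in the high polysome, where its KO libraries held 22.1, 15.3 and 22.7 CPM, all above the WT libraries. The log2 change there was 0.89 (SE 0.28, limma adjusted p = 0.0130), and it was 0.60 without WT gradient 2 (limma adjusted p = 0.105) and 0.77 without KO gradient 3 (0.0719). Its monosome change of 0.30 and low polysome change of 0.14 did not pass the test. Atf5 was lowered in the low polysome, by 0.62 on the log2 scale (SE 0.22, limma adjusted p = 0.0241), and so was Ppp1r15a, by 0.38 (SE 0.14, limma adjusted p = 0.0302). The KO low polysome held 46.7, 83.2 and 50.5 CPM of Atf5, of which gradient 2 lay close to WT, and 66.3, 70.9 and 68.5 CPM of Ppp1r15a, which overlapped WT gradient 3. Neither call held without each gradient in turn. Atf5 lost its call on removal of WT gradients 1 or 3 or KO gradients 1 or 3, with log2 changes of -0.65, -0.58, -0.47 and -0.54 (limma adjusted p = 0.0546, 0.0676, 0.0819 and 0.0752). Ppp1r15a lost it on removal of WT gradients 1 or 2 or KO gradients 1 or 3, with -0.31, -0.29, -0.35 and -0.41 (limma adjusted p = 0.114, 0.167, 0.0664 and 0.0666). The count lowered in the low polysome was 3 in place of 5 in each fit that omitted gradient 1 or 2 of WT, or gradient 1 or 3 of KO.

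**Figure D3:**
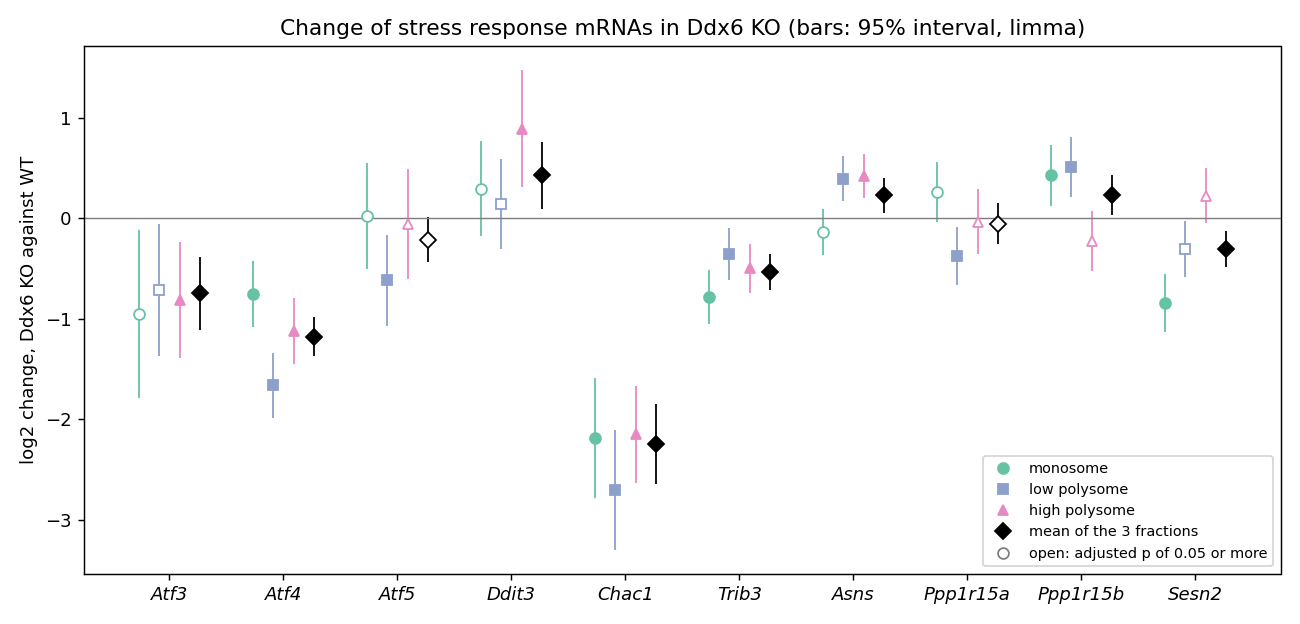
Log2 change of each mRNA in Ddx6 KO against WT on the y axis, by gene on the x axis, in the monosome, the low polysome, the high polysome and the mean of the 3, with 95% intervals from limma and open symbols for an adjusted p of 0.05 or more. Chac1 lies between -2.15 and -2.70 in the fractions, Atf4 is lowest in the low polysome, and Sesn2 runs from -0.84 in the monosome to 0.23 in the high polysome.

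To ask whether loss of Ddx6 moved these mRNAs along the gradient, the log2 ratio of high polysome to monosome in KO was compared with that in WT. This ratio is called translation level here. Sesn2 and Asns moved towards the high polysome and Ppp1r15b moved away from it, while the translation level of the other 7 did not change past the threshold. These are 2 of 10 genes raised and 1 of 10 lowered, against 10.7% and 7.09% of all genes. The median change was 0.09 for the 10 genes and 0.02 for all genes. Raised genes made up 60.1% of all calls here, 51.0% with the size factors of DESeq2 and 40.3% with library size alone, and Sesn2, Asns and Ppp1r15b were called under each. For the low polysome ratio below, raised genes were 49.2% of calls and 31.7% with library size alone. The values of the 6 gradients are given for each called gene, since the fit pools them.

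Sesn2 (ENSMUSG00000028893.8, chromosome 4, 132492032 to 132510501) encodes a stress-induced leucine sensor that restrains mTORC1. In the monosome it was at 116, 133 and 108 CPM in WT and at 71.7, 67.3 and 59.8 CPM in KO. In the high polysome it was at 77.4, 62.9 and 83.4 CPM in WT and at 82.3, 86.2 and 91.6 CPM in KO. The low polysome held 77.6, 74.2 and 78.7 CPM in WT and 55.3, 73.9 and 59.0 CPM in KO. The monosome values were clearly apart, the low polysome values came within 1 CPM of each other in gradient 2, and the high polysome values overlapped. Sesn2 was lowered in the monosome, with a log2 change of -0.84 (SE 0.14, limma adjusted p = 7.15e-05), and its low polysome change of -0.31 did not pass the test (limma adjusted p = 0.0680), though it did without KO gradient 2 (-0.43, adjusted p = 0.0297). Its log2 ratio was -0.58, -1.08 and -0.36 for WT, while KO gradients gave 0.20, 0.35 and 0.61, so that all WT ratios were below 0 and all KO ratios above it. The mean went from -0.68 ± 0.37 to 0.39 ± 0.21 (SD, n = 3 each, two-sided exact permutation p = 0.1, the smallest that 3 against 3 can give). In limma the change was 1.07 (SE 0.19, adjusted p = 0.00119), and the call held without each gradient in turn. Within WT cells the high polysome lay below the monosome for Sesn2, with a log2 difference of -0.68 (SE 0.14, limma adjusted p = 0.000208), and within KO cells above it, with 0.39 (SE 0.13, limma adjusted p = 0.0138), the latter not without KO gradient 3 (0.30, limma adjusted p = 0.147).

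For Asns, the monosome held 199.6, 213 and 218 CPM in WT and 194, 181 and 201 CPM in KO. The low polysome held 159.9, 158 and 150.1 CPM in WT and 188, 231 and 198 CPM in KO. The high polysome held 414, 429 and 469.5 CPM in WT and 548, 619 and 594 CPM in KO. Thus the genotypes overlapped in the monosome and were apart in both polysome fractions. The log2 ratio of high polysome to monosome was 1.05, 1.01 and 1.10 in WT and 1.5, 1.77 and 1.56 in KO, without overlap, and the change was 0.56 (SE 0.15, limma adjusted p = 0.0159). It lost the call without WT gradient 1 (0.45, limma adjusted p = 0.110), WT gradient 2 (0.54, 0.0869), KO gradient 2 (0.48, 0.0719) or KO gradient 3 (0.56, 0.0782), and the count of raised genes was then 1. In the polysome fractions themselves Asns rose by 0.39 (low, SE 0.11, limma adjusted p = 0.00503) and by 0.42 (high, SE 0.10, limma adjusted p = 0.00251), the last not without WT gradient 1 (0.31, adjusted p = 0.0574).

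Ppp1r15b went the other way. Its monosome values were 318, 262 and 288 CPM in WT and 371, 409.6 and 383 CPM in KO, all KO above all WT. Its low polysome values were 429.7, 398 and 293 CPM in WT and 567, 466 and 547 CPM in KO, and its high polysome values were 446, 464 and 407 CPM in WT and 447, 363 and 323 CPM in KO. KO exceeded WT in both of the lighter fractions and overlapped WT in the high polysome. The log2 ratio of high polysome to monosome was 0.49, 0.82 and 0.50 in WT and 0.27, -0.17 and -0.24 in KO. The change was -0.66 (SE 0.20, limma adjusted p = 0.0318), with the call lost without WT gradient 2 (-0.54, limma adjusted p = 0.166), KO gradient 2 (-0.59, 0.103) or KO gradient 3 (-0.58, 0.145), which took the count of lowered genes to 0. Clone 1 (gradient 1) was the KO gradient nearest to WT. Within fractions, the monosome rise was 0.43 (SE 0.15, limma adjusted p = 0.0251) and the low polysome rise 0.51 (SE 0.14, limma adjusted p = 0.00600). The monosome call was lost without WT gradient 2 (0.36, limma adjusted p = 0.130), KO gradient 2 (0.39, 0.0814) or KO gradient 3 (0.43, 0.0575), and the low polysome call without WT gradient 3 (0.34, 0.0671).

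**Figure D4:**
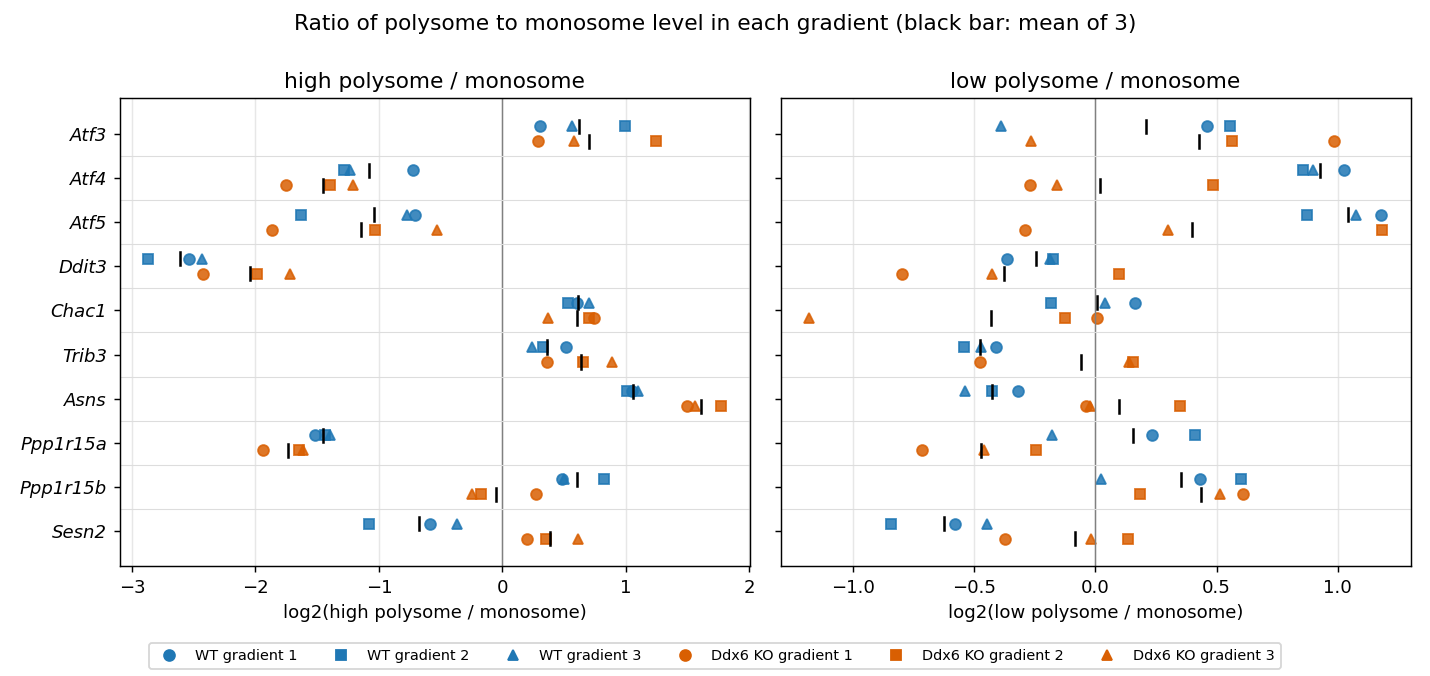
Log2 ratio of high polysome to monosome (left, x axis) and of low polysome to monosome (right, x axis) for each gene, with a point for each of 3 WT and 3 Ddx6 KO gradients and a black bar at the mean. WT and KO gradients are apart for Sesn2, Asns, Ppp1r15b, Ppp1r15a and, only just, Ddit3 on the left. On the right they are apart for Atf4, Asns, Ppp1r15a and Sesn2, and they overlap for the other genes on each side. Ppp1r15a and Ddit3 were not called on the left, and Atf4 alone was called on the right. The share of all genes that are apart in this way is not given, so this describes the points and is no test.

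In the ratio of low polysome to monosome, Atf4 alone was called. None of the 10 genes was raised and 1 was lowered by limma, against 2.31% and 2.39% of all genes. At an unadjusted p under 0.05, 3 were higher, DESeq2 raised 1 and edgeR 0, and the median change was -0.04 for the 10 and 0.02 for all genes. For Atf4 this log2 ratio was 1.03, 0.86 and 0.90 in WT and -0.27, 0.48 and -0.16 in KO. The gradients did not overlap, and the KO ratios were spread more widely. The mean was 0.93 ± 0.09 in WT and 0.02 ± 0.41 in KO, and the change was -0.91 (SE 0.22, limma adjusted p = 0.0254). Its direction was the same without each gradient, but the call was lost without WT gradient 1 (-0.91, limma adjusted p = 0.109), WT gradient 2 (-0.94, 0.105), WT gradient 3 (-0.92, 0.0590) or KO gradient 3 (-0.85, 0.138). Over all genes the fit that omitted WT gradient 1 called 9 raised and 5 lowered, and the fit that omitted KO gradient 3 called 21 and 6. The low polysome mean of Atf4 was 1.90 times its monosome mean in WT and 1.01 times in KO.

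Of the other genes, Asns (0.53, limma adjusted p = 0.0512), Ppp1r15a (-0.64, 0.0720), Sesn2 (0.54, 0.114), Trib3 (0.43, 0.179) and Atf5 (-0.64, 0.284) had changes of the low polysome ratio of similar size that did not pass the threshold. Without KO gradient 1, Asns (0.59, limma adjusted p = 0.0387) and Trib3 (0.63, 0.0388) passed it, and without WT gradient 3 Ppp1r15a did (-0.81, 0.0361). The intervals were wide for the least abundant genes. Atf3 gave 0.24 with a 95% interval of -0.83 to 1.30, and Chac1 gave -0.52 with one of -1.36 to 0.32, which takes in the size of the change in Atf4.

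Chac1 was the opposite case to Sesn2. Its level changed most and its position relative to the monosome did not change detectably. The mean log2 ratio of high to low polysome, not fitted in limma, was 0.60 in WT and 1.04 in KO, without overlap. The log2 ratio of high polysome to monosome was 0.60, 0.53 and 0.70 in WT and 0.74, 0.70 and 0.37 in KO, which overlap, and the change was 0.04 (95% interval -0.73 to 0.80, limma adjusted p = 0.958). Its sign depended on the scaling, with -0.01 for the size factors of DESeq2 and -0.09 for library size alone. Ddit3 stayed far from the high polysome, with ratios of -2.54, -2.87 and -2.43 in WT and -2.43, -1.99 and -1.72 in KO. These only just missed an overlap, the nearest being -2.433 (WT gradient 3) and -2.425 (KO gradient 1). The change of 0.60 (SE 0.36) was not called in limma (adjusted p = 0.258). For Atf4 the change was -0.37 (SE 0.22, limma adjusted p = 0.258), for Trib3 0.29 (SE 0.17, limma adjusted p = 0.264) and for Ppp1r15a -0.29 (SE 0.21, limma adjusted p = 0.355).

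Within KO cells the high polysome exceeded the monosome for 3 of the 10 genes (Asns, Trib3 and Sesn2) and 4 were lower (Atf4, Atf5, Ddit3 and Ppp1r15a), against 35.0% and 33.6% of all genes, with a median log2 difference of 0.17 for the 10 and 0.03 for all. Ddit3 had -2.07 (SE 0.23, limma adjusted p = 1.64e-07), Ppp1r15a -1.75 (SE 0.15, limma adjusted p = 2.34e-09) and Asns 1.61 (SE 0.11, limma adjusted p = 7.24e-11). Ppp1r15b, called higher in WT, gave -0.05 in KO (limma adjusted p = 0.772). Chac1 gave 0.63 in KO (limma adjusted p = 0.0591) and, with the gradient as a replicate block, 0.65 (adjusted p = 0.00826).

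Across the series the KO effect on translation level varied with coding length, so each gene was also read against the trend at its own length (504 nt for Ddit3 to 2091 nt for Ppp1r15b). This alternative was added after the values were seen. At the length of Sesn2 (1440 nt) the trend was 0.10, which left 0.97 (adjusted p = 0.00484). At that of Ppp1r15b it was 0.32, opposite in sign to the change of the gene, which left -0.98 (adjusted p = 0.00770). At that of Asns (1683 nt) it was 0.21, which left 0.35, no longer past the threshold (adjusted p = 0.172). Ddit3 had 1.09 after removal of the trend (adjusted p = 0.0786). In the low polysome ratio Atf4 kept -0.98 (adjusted p = 0.0352), since the trend at 1047 nt was 0.07. These p-values come from the limma statistics with the trend subtracted.

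The genes around these 10 were examined in lists made with earlier results of these data known, so their counts are a description. For the eIF2 kinases and their substrate, including subunits of eIF2 and of its exchange factor eIF2B, all 15 genes were measured. Abundance was raised for 4 and lowered for 2 (all genes: 28.5% and 28.7%), with a median log2 change of -0.06. Eif2ak3, which encodes the kinase PERK, rose by 1.01 (SE 0.10, limma adjusted p = 3.24e-06), from WT means of 36.8, 50.5 and 93.9 CPM over the fractions in that order to 77, 130 and 147 CPM in KO. Eif2s2, the beta subunit of eIF2, went from 441, 798 and 804 CPM to 150, 211 and 196 CPM, a log2 change of -1.83 (SE 0.11, limma adjusted p = 3.40e-08). Eif2b5, the catalytic subunit of eIF2B, changed by -1.05 (limma adjusted p = 4.03e-07). Eif2b1 (0.43), Impact (0.36) and Dnajc3 (0.34), an inhibitor of PERK, made up the rest of the raised genes. The other kinase genes, Eif2ak1 (-0.09), Eif2ak2 (0.33) and Eif2ak4 (-0.14), did not pass the test. With counts summed over the fractions the list had 1 raised and 3 lowered in both edgeR and DESeq2. Translation level was raised for 2 (Gcn1l1, the activator of the kinase GCN2, by 1.22, and Eif2b2 by 0.97) and lowered for none (all genes: 10.7% and 7.09%). Without WT gradient 2 or KO gradient 3 none was raised, without WT gradient 1 the counts were 1 raised and 1 lowered, and without KO gradient 1 they were 3 raised and 3 lowered. With the coding-length trend removed they were 1 raised and 1 lowered. At an unadjusted p under 0.05 1 gene was lower, and DESeq2 lowered 1 and edgeR 0. The abundance count was 2 raised without KO gradient 3.

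Of 8 measured amino acid transporters known as ATF4 targets, 6 were raised in translation level and none lowered (all genes: 10.7% and 7.09%), with a median log2 change of 1.21 beside 0.02 for all genes, and 4 to 6 were raised without each gradient in turn. With the coding-length trend removed, 5 were raised and none lowered. Slc1a5, the main glutamine carrier, rose by 1.66 (SE 0.19, limma adjusted p = 3.59e-05), Slc1a4 by 1.4 (SE 0.22, adjusted p = 0.000547), Slc7a3 by 1.37 (SE 0.19, adjusted p = 0.000151) and Slc6a9 by 1.33 (SE 0.37, adjusted p = 0.0185). The monosome level of these transporters was lowered for 6 of 8 in KO (all genes: 20.1%), and the high polysome level was raised for 3 and lowered for none (25.3% and 21.1%). Slc7a5 (-0.27) and Slc3a2 (0.49, limma adjusted p = 0.0764) were not called in translation level. Slc1a5 went from 849 to 393 CPM in the monosome and from 408 to 597 CPM in the high polysome (means, n = 3 each). In abundance none was raised and 5 were lowered (all genes: 28.5% and 28.7%), among them Slc1a4 (-0.64), Slc7a3 (-0.51), Slc6a9 (-0.46) and Slc38a2 (-0.33), while at an unadjusted p under 0.05 limma had 1 higher, and edgeR and DESeq2 on summed counts gave 1 raised each, with 2 and 3 lowered.

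Enzymes of amino acid and one-carbon metabolism under ATF4 were called lower in abundance for 5 of 10 measured and higher for none (all genes: 28.7% and 28.5%), with a median of -0.30. Pycr1, of proline synthesis, changed by -1.0 (SE 0.10, limma adjusted p = 1.76e-06), Psat1 and Psph, of serine synthesis, by -0.62 and -0.49, and Mthfd1l, of mitochondrial folate metabolism, by -0.58. Summed counts gave 2 raised and 6 lowered in edgeR and in DESeq2. Translation level was raised for Mthfd1l (1.63, limma adjusted p = 0.000141), Shmt2 (1.12, adjusted p = 0.00658) and Aldh18a1 (1.10, adjusted p = 0.0174) and lowered for none (all genes: 10.7% and 7.09%). Without a single gradient the count raised was 1 to 3, lowest without WT gradient 2. With the coding-length trend removed it was 3. At an unadjusted p under 0.05, 2 were lower in translation level. A limma fit to only the groups compared called 3 raised and 2 lowered.

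Other stress targets were mostly lower in abundance, and none was called in translation level. Of 12 measured, 1 was raised and 7 lowered in abundance (all genes: 28.5% and 28.7%), with a median of -0.36. Stc2, a secreted glycoprotein gene induced by ATF4, changed by -1.80 (SE 0.13, limma adjusted p = 1.79e-07), Jdp2 by -0.65, Ddit4, an inhibitor of mTORC1, by -0.57 and Eif4ebp1, an inhibitor of cap-dependent initiation, by -0.57. Gadd45a, which is also a target of p53, rose by 1.64 (SE 0.18, limma adjusted p = 5.03e-06). None of the 12 translation levels passed in the reported limma fit, edgeR or DESeq2, while 2 were lower in limma at an unadjusted p under 0.05. In limma with library size alone 1 was lowered, and with only the groups compared 2 were.

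The IRE1 and ATF6 branches of the unfolded protein response, which share upstream stress with PERK but do not act through eIF2, were mostly raised in abundance. Of 11 measured genes 9 were raised and none lowered in abundance (all genes: 28.5% and 28.7%), with a median log2 change of 0.54. Summed counts gave 7 raised in edgeR and in DESeq2. Pdia4, a disulfide isomerase, rose by 1.19 (SE 0.11, limma adjusted p = 1.44e-06), Edem1 by 0.75, and the sensors Atf6 and Ern1 by 0.62 each. The count raised was 8 or 9 without each gradient in turn. Without KO gradient 3, and also with the gradient number as a block, 1 was lowered. In translation level Hspa5 (1.1) and Hyou1 (0.93), which are chaperones, were raised and Sdf2l1 (-0.88) was lowered. These are 2 of 11 raised and 1 of 11 lowered, near the 10.7% and 7.09% of all genes. No gene of the list was called once gradient 1 or 2 of WT, or gradient 3 of KO, was left out. Nor was any called with the coding-length trend removed. Among paralogs of the 10 genes, 6 were measured. Trib1 rose in abundance (0.51) and in translation level (1.17), Trib2 (-1.05) and Sesn1 (-0.72) were lowered in abundance, and Atf7 rose in translation level (0.87). In abundance these are 1 of 6 raised and 2 of 6 lowered (all genes: 28.5% and 28.7%). In translation level they are 2 of 6 raised and none lowered (all genes: 10.7% and 7.09%). Leaving out gradient 1 or 2 of WT, or gradient 3 of KO, took the paralogs raised in translation level from 2 to 1. Removal of the coding-length trend did the same.

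**Figure D5:**
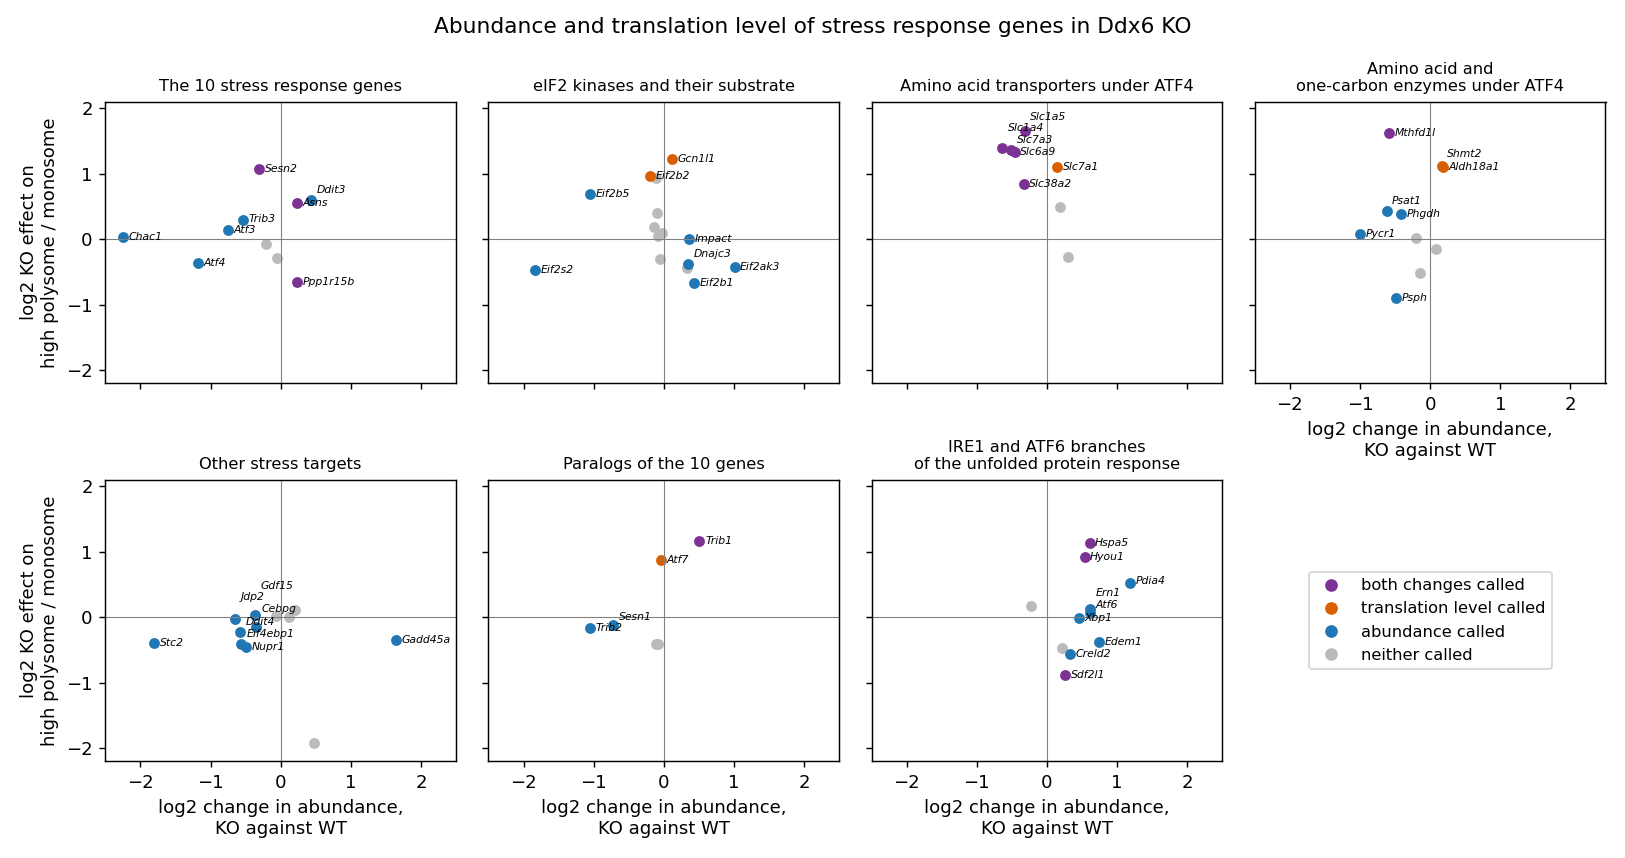
Log2 change in abundance (x axis) against log2 KO effect on the ratio of high polysome to monosome (y axis) for the 10 genes and for each list around them, coloured by which change was called at a limma adjusted p under 0.05. The amino acid transporters have medians of -0.32 in abundance and 1.21 in translation level, and genes of the IRE1 and ATF6 branches lie mostly right of 0.

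Last, promoters were searched for the composite site that ATF4 binds with C/EBP partners, because several of these genes are known ATF4 targets. RefSeq promoters on GRCm38.p6, in windows around the start site, were given for 9 of the 10 genes. The motif TGATGNAAN, searched on both strands, was present in 4 of these 9 and in 3.95% of 32851 promoters. Atf3, Chac1 and Trib3, which were lowered in abundance, held it, and so did Asns, which was raised. It was not found in these windows for Atf4, Atf5, Ddit3, Ppp1r15a or Sesn2. The Asns match overlaps the upstream AUGs counted in its leader above, so these bases are promoter by RefSeq and leader by Gencode. Capitals mark the match on the strand of the gene, where the first 3 read as the reverse complement of the motif.
Chac1, 194 bases before the start site, chr2:119351038-119351066: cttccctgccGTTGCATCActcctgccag
Atf3, 111 bases before, chr1:191183426-191183454: ccttctcgcaCTTGCATCAccaagtccgc
Trib3, 13 bases after, chr2:152344029-152344057: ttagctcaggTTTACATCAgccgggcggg
Asns, 23 bases before, chr6:7693214-7693242: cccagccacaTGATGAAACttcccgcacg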

How the data were processed

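Per the labels, RNA from monosome, low polysome and high polysome fractions was made into QuantSeq 3′ FWD libraries. Per the labels and the file headers, the authors trimmed reads (cutadapt 1.14), aligned them to mm10 (STAR 2.5.3a), kept unique alignments and counted reads per gene by strand with featureCounts 1.5.3. The deposited values are raw counts for 51467 genes and 92 spike-in sequences, the latter kept out of every library size and test. Molecular identifiers are not mentioned, so the counts may include PCR duplicates. Genes with at least 3 CPM in 3 libraries (12705, holding 99.6% of the counts) were scaled by TMM (edgeR 4.0.16) and fitted as 6 group means with limma 3.58.1 (voom weights, R 4.3.3). Tests were two-sided with Benjamini-Hochberg adjustment over all 12705 genes and a threshold of 0.05. Abundance was the gradient mean of log2(CPM + 0.5) over fractions, fitted by limma with an intensity trend to 6 gradients. Ratios of single gradients used the same pseudocount. The fits were also run on simulated counts with the same dispersion for every gene and independent libraries. These lack variation shared within a gradient or clone, so they do not show how the tests behave on the present data.

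The 10 genes and all lists were chosen with earlier results of these data known. The genes named from a list are those called in translation level or abundance, with the 4 largest where more were called in a direction. The 3 fractions that share a genotype and a number in the labels were taken to come from one gradient. Correlations of their deviations from the group means were -0.18 to 0.48 over 18 pairs, and a fit with the gradient as a block was an alternative, as were other scalings, no filter on low counts, edgeR, DESeq2 1.42.0, a fit to the groups compared, and leaving out each gradient. The coding-length trend and the clone fit with 1 value per gradient were added after the data were seen. Whether the 3 gradients of a genotype came from separate cultures is not given in the sources used here, so p-values measure the spread between gradients, which may be technical. Replicate libraries differed by more than sampling noise (chi-square per gene 3.62 to 30.2). No 50-base stretch in the last 600 bases of any of the 10 transcripts occurred in another gene's transcript.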

Additional observations from a re-analysis of the deposited data

Results flagged for a closer look

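The effect of high polysome over monosome differed between the genotypes, by the test of the difference itself, for Sesn2 (1.07 on the log2 scale, KO less WT, limma adjusted p = 0.00119), Asns (0.56, 0.0159) and Ppp1r15b (-0.66, 0.0318). For Sesn2 the ratio was negative in all 3 WT gradients and positive in all 3 KO gradients. The effect of low polysome over monosome differed for Atf4 (-0.91, limma adjusted p = 0.0254). Among these calls, only that of Sesn2 held without each gradient in turn. Those of Asns, Ppp1r15b and Atf4 were each lost in several of these fits. For Chac1 a fit over libraries called clone 1 higher by 0.85 over the fractions (limma adjusted p = 0.0493), but clone 1 has 1 gradient, whose 3 fractions that fit counts separately, and with 1 value per gradient the call was lost (0.79, limma adjusted p = 0.203). Reads on the ERCC spike-in sequences, which enter no comparison, were present in every library, with 28 to 169 counts.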

How the results depend on the processing

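Of 1070 values of the 10 genes under 14 alternative settings, 950 kept their direction and their side of the threshold, 64 lost the call, 23 gained one, 31 changed sign and 2 counts of upstream AUGs moved; no called value changed sign in any of these settings. Chac1 changed sign for high polysome over monosome, to -0.015 (size factors of DESeq2), -0.093 (library size alone), -0.080 (no filter), -0.024 (DESeq2) and -0.052 (only the groups compared), and Ppp1r15a for abundance, to 0.056 in edgeR and 0.041 in DESeq2. With the coding-length trend removed, Atf5 gave 0.17 for the high polysome ratio, and Ddit3 gave 0.21 and Ppp1r15b -0.089 for the low polysome ratio. Without single gradients, values that changed sign spanned, for the high polysome ratio, -0.18 to 0.37 (Atf3), -0.41 to 0.29 (Atf5) and -0.084 to 0.15 (Chac1). For the low polysome ratio they spanned -0.092 to 0.64 (Atf3), -0.39 to 0.055 (Ddit3) and -0.083 to 0.21 (Ppp1r15b). They were -0.17 to 0.16 for Atf5 in the monosome, -0.35 to 0.12 for Atf5 and -0.11 to 0.018 for Ppp1r15a in the high polysome, and -0.21 to 0.068 for Ppp1r15b within KO.

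The count raised in the high polysome ratio was 1 without the filter and with the length trend removed, and 1 to 2 without single gradients, and the count lowered was 0 to 1. In the low polysome ratio 1 was raised with the size factors of DESeq2 and in DESeq2, 2 were lowered with library size alone and in DESeq2, and single gradients gave 0 to 2 raised and 0 to 1 lowered. Without single gradients 2 to 4 were higher in the high polysome of WT, 0 to 1 raised in the monosome, 1 to 2 raised and 3 to 6 lowered in the low polysome, 1 to 2 raised in the high polysome and 0 to 2 raised in abundance. Without the filter, or with only the groups compared, 3 were lowered in the low polysome. In abundance 1 was raised with the size factors of DESeq2, without the filter, in edgeR and in DESeq2. Between the clones 0 of the 10 genes were called with library size alone, without the filter, or with 1 value per gradient. The causes were not tested.

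With the gradient as a replicate block, Chac1 in the KO (0.65) gained the call and no other call of the 10 genes changed. Between genotypes the numbers pair nothing by the labels, and deviations of WT and KO libraries with the same number correlated at -0.51 to 0.25 (3 of 9 over 0.1). Depth limits Atf3 most, with 18 to 139 counts a library.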
